A study of Mus musculus with 6 samples.

Results

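The unfolded protein response of the endoplasmic reticulum (ER) was followed through 10 genes, Hspa5, Hsp90b1, Calr, Pdia4, Pdia6, Sdf2l1, Dnajb9, Herpud1, Edem1 and Xbp1, which were picked by symbol as ER chaperones, folding enzymes, degradation factors and a transcription factor of this response. All 10 were found among the 54532 genes of the deposited table, each under a single identifier, and all 10 passed the filter on low values, which left 12755 genes for testing. The libraries were made from bone-marrow-derived macrophages (BMDMs), which are macrophages grown in culture from the marrow of wildtype C57BL/6 mice. Each of 3 groups had 2 libraries, numbered 1 and 2. The groups were untreated BMDMs (Untr), BMDMs given 100 ng/ml lipopolysaccharide (LPS), a bacterial cell wall molecule that macrophages sense through Toll-like receptor 4, for 2 h, and BMDMs given 5 mM metformin, a drug for type-2 diabetes, for 6 h before the same LPS stimulation (Met + LPS). No group received metformin alone, so an effect of metformin that needs LPS cannot be told apart from one that does not. The cells of each group were seeded in duplicate, and no source used here says that the duplicates came from separate mice, so that the p-values measure the spread between these libraries.

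Proteins that enter the ER are folded by chaperones and by enzymes that form disulfide bonds, and proteins that fail to fold are exported and degraded. When unfolded proteins accumulate, the sensors IRE1, PERK and ATF6 in the ER membrane start the unfolded protein response. ATF6 is cleaved into a transcription factor, IRE1 splices the mRNA of Xbp1 so that it encodes an active factor, and PERK slows translation and favours the translation of ATF4. ATF6 and XBP1 are known to raise chaperone and degradation genes, whereas ATF4 raises genes of amino acid supply and, with CHOP, of stress adaptation. In macrophages, signals from Toll-like receptors are known to engage the IRE1 branch. The values here are sums over all transcripts of a gene and do not show whether Xbp1 was spliced.

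Levels are given as TPM, the transcripts of a gene per 1000000 transcripts of its library, which the authors computed with a correction for gene length, so that levels can be compared between genes. Taking TPM times exon length as multiples of 1 read, the libraries held between 25457020 and 30762763 reads, and each member had between 489 and 32857 reads per library. All 8 macrophage markers examined were between 12.9 and 35844 TPM in every library. Their sum, most of it from the lysozyme gene Lyz2, was 44621 to 46599 TPM in Untr, 37412 to 37903 TPM in LPS and 30877 to 30948 TPM in Met + LPS. The other markers did not all follow this order. From Untr to LPS the mean of Cd14 went from 955 to 2763 TPM and that of Adgre1 from 1543 to 1717 TPM. Fcgr1 was at 165 TPM in both groups. From LPS to Met + LPS the mean was lower for every macrophage marker but Cd68, which was at 4777 and 4783 TPM. The means went from 2763 to 2089 TPM for Cd14, from 1717 to 1358 TPM for Adgre1 and from 165 to 74.4 TPM for Fcgr1. No T cell, B cell, plasma cell or fibroblast marker reached 0.5 TPM, with Cd3g listed at 0 in all libraries. The 5 neutrophil markers summed to 6.58 to 9.12 TPM in Untr, 8.20 to 8.28 TPM in LPS and 11.6 to 12.9 TPM in Met + LPS. The part of these markers in the results below was not tested. In bulk RNA, fewer cells of a type and less RNA per cell cannot be told apart.

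The promoters are shown for the members that hold a match to a known response element. The part of these elements in the changes reported here was not tested. The ER stress response element (ERSE) joins a site for the factor NF-Y to a site for ATF6 and XBP1 and was searched as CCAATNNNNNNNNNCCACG. A second form, ERSE-II, was searched as ATTGGNCCACG, the XBP1 site UPRE as TGACGTGG, and the element CARE, which binds ATF4 with C/EBP factors, as TGATGNAA. N stands for any base, and only exact matches were counted, so near matches to these letters are left out. ERSE and ERSE-II end in the same letters CCACG, and no matches of different elements overlapped in the promoters of the members. Both strands of the 300 bases from 250 before to 50 after the start of each gene were searched, with sequences from RefSeq on GRCm38.p6, where each of the 10 members had 1 entry. ERSE was present in the promoters of 4 of the 10 members (Hspa5, Hsp90b1, Calr and Pdia6) and in 0.119% of all 32851 promoters. ERSE-II was present in 1 member, Herpud1, and in 0.0365% of all promoters. CARE was also present in Herpud1 and in 3.97% of all promoters, and UPRE was found in no member and in 0.676% of all promoters. The sequences below are written 5′ to 3′ on the strand of the gene, with the matches in capitals.
Hspa5 (GRCm38.p6, chr2:34771840-34772139, plus strand), ERSE from 65 to 47 bases before the start:
Hspa5: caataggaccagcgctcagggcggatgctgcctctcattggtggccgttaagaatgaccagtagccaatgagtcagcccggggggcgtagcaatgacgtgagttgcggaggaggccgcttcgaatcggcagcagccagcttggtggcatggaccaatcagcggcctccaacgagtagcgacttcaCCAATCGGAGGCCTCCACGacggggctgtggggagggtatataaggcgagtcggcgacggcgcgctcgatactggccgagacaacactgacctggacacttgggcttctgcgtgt
Hsp90b1 (GRCm38.p6, chr10:86705395-86705694, minus strand), ERSE from 212 to 194 bases before the start and, on the opposite strand, from 107 to 89 bases before it:
Hsp90b1: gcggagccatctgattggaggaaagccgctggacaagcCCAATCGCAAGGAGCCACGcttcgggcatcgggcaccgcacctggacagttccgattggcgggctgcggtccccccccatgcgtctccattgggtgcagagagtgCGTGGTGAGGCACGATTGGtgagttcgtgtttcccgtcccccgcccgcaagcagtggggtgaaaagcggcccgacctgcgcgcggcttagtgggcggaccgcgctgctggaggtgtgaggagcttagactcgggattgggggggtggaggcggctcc
Calr (GRCm38.p6, chr8:84846882-84847181, minus strand), ERSE on the opposite strand from 162 to 144 bases before the start:
Calr: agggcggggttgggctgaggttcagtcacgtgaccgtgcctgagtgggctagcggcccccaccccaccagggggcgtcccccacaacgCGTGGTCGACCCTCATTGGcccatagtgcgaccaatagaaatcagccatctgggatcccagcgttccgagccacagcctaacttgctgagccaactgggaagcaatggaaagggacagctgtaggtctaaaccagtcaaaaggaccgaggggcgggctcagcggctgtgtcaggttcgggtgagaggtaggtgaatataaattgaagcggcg
Pdia6 (GRCm38.p6, chr12:17266339-17266638, plus strand), ERSE from 98 to 80 bases before the start:
Pdia6: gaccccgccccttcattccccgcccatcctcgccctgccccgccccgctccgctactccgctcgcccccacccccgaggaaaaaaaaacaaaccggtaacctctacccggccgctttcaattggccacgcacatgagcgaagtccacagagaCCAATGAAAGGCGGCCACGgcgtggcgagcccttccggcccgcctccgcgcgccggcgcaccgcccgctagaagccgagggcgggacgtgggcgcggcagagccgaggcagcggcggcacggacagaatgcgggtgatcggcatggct
Herpud1 (GRCm38.p6, chr8:94386179-94386478, plus strand), ERSE-II from 52 to 42 bases before the start and CARE on the opposite strand from 112 to 105 bases before it:
Herpud1: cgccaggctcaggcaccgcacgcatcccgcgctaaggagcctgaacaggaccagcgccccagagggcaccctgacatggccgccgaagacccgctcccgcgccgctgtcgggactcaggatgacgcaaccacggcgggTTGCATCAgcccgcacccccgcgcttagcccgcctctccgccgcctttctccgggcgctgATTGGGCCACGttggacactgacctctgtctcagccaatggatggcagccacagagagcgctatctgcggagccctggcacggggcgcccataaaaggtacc

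In untreated BMDMs the most abundant member was Calr, with a mean of 1041 ± 30.7 TPM (SD, n = 2), followed by Hspa5 at 627 ± 9.09 TPM and Hsp90b1 at 357 ± 4.75 TPM. Dnajb9 (47.0 ± 2.87 TPM) and Herpud1 (48.1 ± 0.397 TPM) were the least abundant, and their libraries overlapped. In LPS the order changed at the top, with Hspa5 (1016 ± 7.13 TPM) above Calr (948 ± 5.27 TPM) in both libraries. In Met + LPS the order changed at the bottom, where Pdia4 (44.5 ± 0.0284 TPM) and Dnajb9 (45.0 ± 1.77 TPM) overlapped. The neighbours Sdf2l1 and Pdia6 overlapped in Untr, and Pdia6 and Xbp1 overlapped in LPS. The 10 genes together made up 3009 and 3103 TPM in Untr, 3101 and 3081 TPM in LPS, and 2354 TPM in each of the Met + LPS libraries. Hspa5 supplied 20.6% and 20.4% of that sum in Untr, 32.9% and 32.8% in LPS and 35.6% and 34.96% in Met + LPS.

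**Figure D1:**
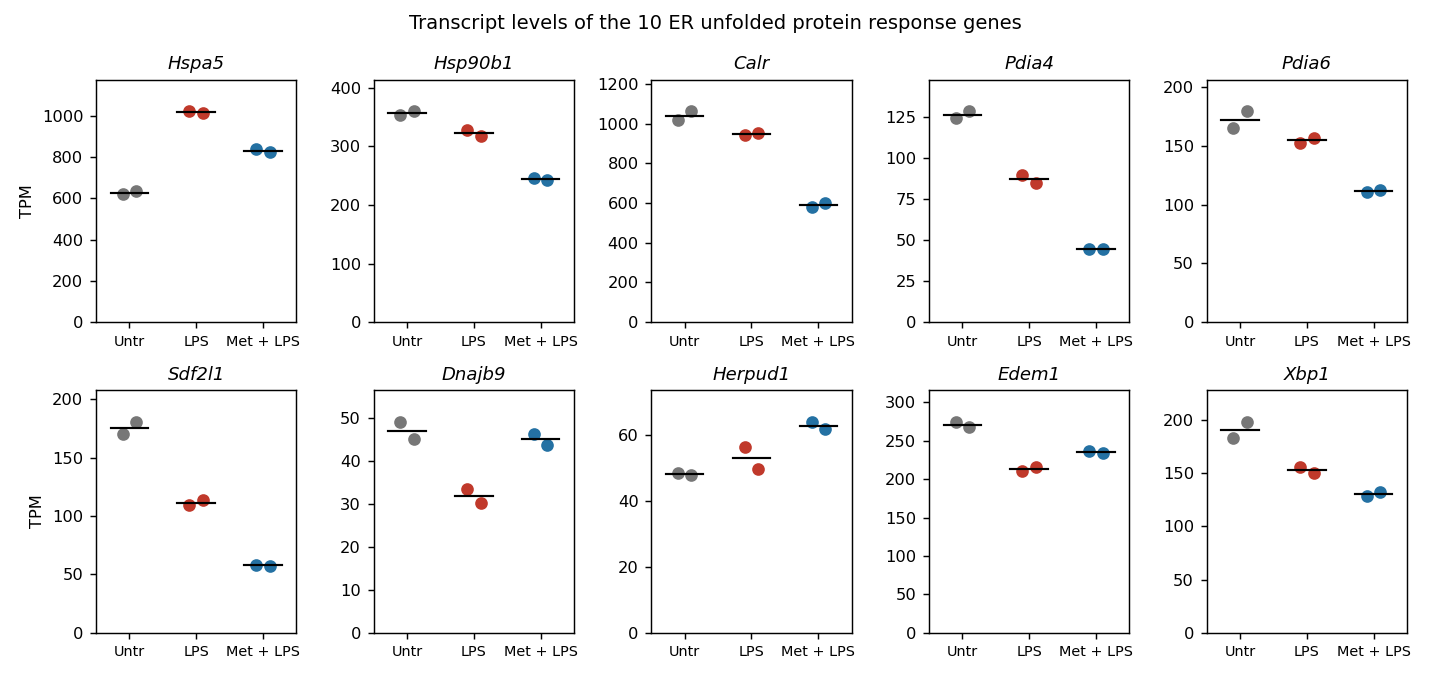
Each panel plots the TPM of 1 gene (vertical axis, from 0) in the untreated (grey), LPS (red) and Met + LPS (blue) libraries, with a point per library and a black line at the mean of 2. In these deposited TPM, Hspa5 was highest in LPS, and Dnajb9 and Edem1 were lowest in LPS. The mean of Calr went from 948 TPM in LPS to 591 TPM in Met + LPS.

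The first comparison asked what metformin pretreatment changed in LPS-stimulated BMDMs. Of the 10 members, 7 were downregulated in Met + LPS vs. LPS at an adjusted p-value under 0.01 in limma, the test used here on log2(TPM + 1), against 18.0% of all tested genes. The 7 were Hspa5, Hsp90b1, Calr, Pdia4, Pdia6, Sdf2l1 and Xbp1. Dnajb9 was upregulated, against 14.5% of all tested genes, and Herpud1 and Edem1 did not pass. The median log2 fold change of the 10 genes was -0.34, and that of all tested genes was -0.03. Pdia4 and Sdf2l1 also passed the study's cut-off, an absolute log2 fold change of 0.7, which 4.09% of all tested genes passed downwards. The study set this cut-off for fold changes from DESeq2, a test on counts, not for limma on log2(TPM + 1). When the libraries were rescaled by their median ratio over genes, no member changed direction, the same 8 members passed, and Edem1 passed as well (log2 fold change 0.16, adjusted p = 0.00947 in limma).

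Pdia4 and Pdia6 encode protein disulfide isomerases, which form and rearrange disulfide bonds in the ER. Pdia4 (ENSMUSG00000025823, GRCm38 chromosome 6, 47796141 to 47813430) was at 125 and 129 TPM in Untr, 90.1 and 84.9 TPM in LPS and 44.5 TPM in both Met + LPS libraries. The Met + LPS libraries lay below both LPS libraries, which lay below both untreated libraries. Between LPS and Met + LPS it fell with a log2 fold change of -0.96 (SE 0.04, adjusted p = 1.92e-05 in limma), the largest decrease among the members in this comparison, to 0.514 of the LPS level. Pdia6 (ENSMUSG00000020571, chromosome 12, 17266545 to 17284770) was at 165 and 179.5 TPM in Untr, 153 and 157 TPM in LPS and 111 and 112 TPM in Met + LPS. It fell by 0.47 on the log2 scale in Met + LPS vs. LPS (SE 0.05, adjusted p = 3.35e-04 in limma), less than Pdia4, and its groups did not overlap.

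Sdf2l1 (ENSMUSG00000022769, chromosome 16, 17130138 to 17132383), an ER-resident partner of the DnaJ cochaperones, followed a course close to that of Pdia4. It was at 170.1 and 180.4 TPM in Untr, 109 and 114 TPM in LPS and 58.4 and 57.4 TPM in Met + LPS. The 3 groups were apart from each other, with Met + LPS lowest. Its log2 fold change from LPS to Met + LPS was -0.93 (SE 0.04, adjusted p = 2.02e-05 in limma). Neither Pdia4 nor Sdf2l1, the members with the largest decreases, had a match to any of the 4 elements in its promoter.

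Calr, Hsp90b1 and Hspa5 encode abundant ER chaperones. Calreticulin binds glycoproteins and calcium. Calr (ENSMUSG00000003814, chromosome 8, 84841850 to 84846934) was at 1019 and 1063 TPM in Untr, 944 and 952 TPM in LPS and 579.5 and 602 TPM in Met + LPS, which set the Met + LPS libraries far below the other 4. Calr changed from LPS to Met + LPS by -0.68 on the log2 scale (SE 0.04, adjusted p = 3.26e-05 in limma), just short of the cut-off of 0.7. With single libraries left out the change of Calr lay between -0.71 and -0.65, on both sides of that cut-off. Hsp90b1 (ENSMUSG00000020048, chromosome 10, 86690209 to 86705509), which encodes the HSP90 paralogue GRP94, was at 353 and 359.9 TPM in Untr, 329 and 317 TPM in LPS and 246 and 243 TPM in Met + LPS. The last 2 libraries were lowest, and the log2 fold change was -0.40 (SE 0.03, adjusted p = 1.73e-04 in limma).

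Hspa5 (ENSMUSG00000026864, chromosome 2, 34771970 to 34777547) encodes BiP, the HSP70 chaperone that binds unfolded proteins in the ER and holds the sensors inactive. It was at 621 and 634 TPM in Untr, 1021 and 1011 TPM in LPS and 838 and 823 TPM in Met + LPS. Met + LPS thus lay between the other 2 groups, without overlap. Hspa5 fell by 0.29 on the log2 scale in Met + LPS vs. LPS (SE 0.03, adjusted p = 4.09e-04 in limma). The 4 members with an ERSE, printed above, all fell in this comparison, beside 18.0% of all tested genes. Pdia4, Sdf2l1 and Xbp1, which have no ERSE match, fell as well, and Dnajb9, Herpud1 and Edem1 did not. Whether the element had a part in these decreases was not tested.

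Xbp1 (ENSMUSG00000020484, chromosome 11, 5520659 to 5525893), the transcription factor of the IRE1 branch, was at 184 and 198 TPM in Untr, 155 and 150.5 TPM in LPS and 129 and 132 TPM in Met + LPS. The groups did not overlap, and the log2 fold change from LPS to Met + LPS was -0.23 (SE 0.05, adjusted p = 0.00689 in limma). This call depended on the setting and on every library of the comparison. With all libraries kept, the adjusted p-value was 0.0245 with no filter on low values and 0.0285 in eBayes without a trend. The adjusted p-value was 0.0366 without LPS replicate 1, 0.0194 without LPS replicate 2, 0.0379 without Met + LPS replicate 1 and 0.0233 without Met + LPS replicate 2, while the log2 fold change stayed between -0.25 and -0.20. With a single library left in a group, that library is assumed to vary like those of the other groups.

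Dnajb9, Herpud1 and Edem1 serve ER-associated degradation, the export of misfolded proteins to the proteasome, and all 3 had higher means in Met + LPS than in LPS. Dnajb9 (ENSMUSG00000014905, chromosome 12, 44205559 to 44210326), a cochaperone of BiP also called ERdj4, was at 49.1 and 45.0 TPM in Untr, 33.5 and 30.3 TPM in LPS and 46.3 and 43.8 TPM in Met + LPS. In deposited TPM the LPS libraries were lowest, and the untreated and Met + LPS libraries overlapped. After median-ratio scaling, Dnajb9 differed little between LPS and Untr (log2 fold change -0.03). From LPS to Met + LPS, Dnajb9 rose by 0.49 on the log2 scale (SE 0.07, adjusted p = 0.00146 in limma). Without Met + LPS replicate 1 the log2 fold change was 0.45 and the adjusted p-value 0.0115.

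Herpud1 (ENSMUSG00000031770, chromosome 8, 94386438 to 94395377), which encodes a membrane protein of the degradation complex, was at 48.4 and 47.8 TPM in Untr, 56.4 and 49.6 TPM in LPS and 63.9 and 61.7 TPM in Met + LPS. The groups did not overlap, but the LPS libraries were spread widely. From LPS to Met + LPS the log2 fold change was 0.24 (SE 0.06, adjusted p = 0.0190 in limma). It was 0.33 (adjusted p = 0.00445) without LPS replicate 1 and 0.15 (adjusted p = 0.0564) without LPS replicate 2. Edem1 (ENSMUSG00000030104, chromosome 6, 108828641 to 108859356), which directs misfolded glycoproteins to degradation, was at 274 and 267 TPM in Untr, 209.9 and 216 TPM in LPS and 236 and 234 TPM in Met + LPS. In deposited TPM, LPS was lowest here too, without overlap. After median-ratio scaling Edem1 was higher in LPS than in Untr (log2 fold change 0.18). From LPS to Met + LPS its log2 fold change as deposited was 0.14 (SE 0.03, adjusted p = 0.0116 in limma). With single libraries left out, the log2 fold change of Edem1 as deposited lay between 0.12 and 0.16. Herpud1 and Edem1 were both past 0.01 with limma voom on the recovered reads. Their log2 fold changes in limma voom were 0.28 (adjusted p = 8.18e-04) for Herpud1 and 0.17 (adjusted p = 4.06e-04) for Edem1.

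The second comparison asked how LPS alone changed these genes. Here the scaling mattered. The median of all tested genes moved by -0.48 on the log2 scale in the deposited TPM and by -0.01 after median-ratio scaling, so that the direction of small changes depended on the scaling. As deposited, 1 member was upregulated (against 16.2% of all tested genes) and 6 were downregulated (against 60.1%). After median-ratio scaling, 7 members were upregulated (against 30.6% of all tested genes) and 0 were downregulated (against 27.6%) at an adjusted p-value under 0.01 in limma. With limma voom on the recovered reads the counts were 7 and 1, the latter being Sdf2l1 (log2 fold change -0.18, adjusted p = 0.00667). The median of the 10 members was -0.24 as deposited and 0.29 after the scaling, each above that of all tested genes.

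Hspa5 was the member whose increase held on both scales. It rose by 0.69 on the log2 scale as deposited (SE 0.03, adjusted p = 1.96e-06 in limma), to 1.62 times the untreated level, and by 1.22 (adjusted p = 1.22e-07) after median-ratio scaling. Herpud1 was at 0.13 (SE 0.06, adjusted p = 0.0866 in limma) as deposited and at 0.65 (adjusted p = 1.08e-04) after the scaling. The value as deposited was 0.22 (adjusted p = 0.00703 in limma) without LPS replicate 2 and 0.04 (adjusted p = 0.447) without LPS replicate 1.

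For 5 members the sign depended on the scaling. Hsp90b1 (-0.14 as deposited, 0.38 after median-ratio scaling), Calr (-0.13 and 0.39), Pdia6 (-0.15 and 0.37), Xbp1 (-0.32 and 0.21) and Edem1 (-0.34 and 0.18) had lower shares of all transcripts in LPS, but fell less than the median gene. As deposited, the adjusted p-values in limma were 0.00561 for Hsp90b1, 0.0104 for Calr, 0.0168 for Pdia6, 5.70e-04 for Xbp1 and 7.14e-05 for Edem1. The decrease of Hsp90b1 in deposited TPM did not pass without untreated replicate 1 (adjusted p = 0.0223 in limma), without untreated replicate 2 (0.0444) or without LPS replicate 2 (0.0295), and Pdia6 was at -0.21 (adjusted p = 0.00691) without untreated replicate 1 and at -0.10 (adjusted p = 0.116) without untreated replicate 2.

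Sdf2l1 (-0.65), Dnajb9 (-0.55) and Pdia4 (-0.53) had the largest decreases in LPS as deposited, with adjusted p-values of 1.26e-05, 2.60e-04 and 3.03e-05 in limma. After median-ratio scaling they were at -0.13 (adjusted p = 0.0339), -0.03 (0.671) and -0.01 (0.872), so that they moved with the median gene or nearly so. The plot of the fold changes shows the offset between the 2 scales, which is about the same for each gene in LPS vs. untreated and close to 0 in Met + LPS vs. LPS.

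**Figure D2:**
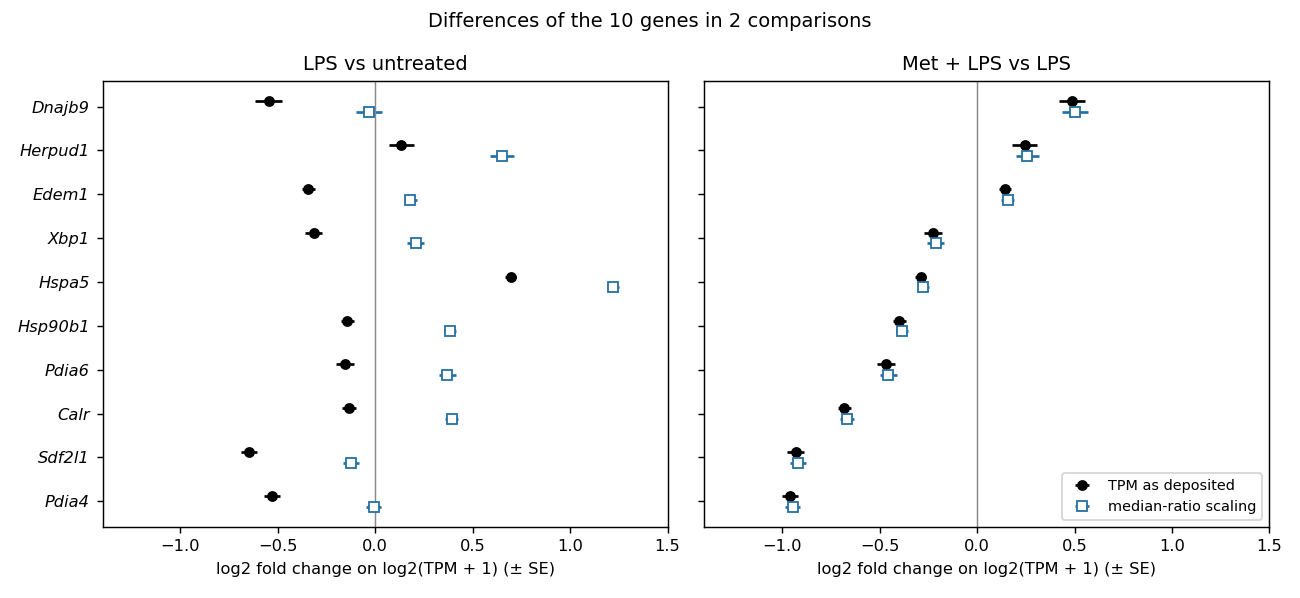
Log2 fold changes on the log2(TPM + 1) scale (horizontal axis) of the 10 genes (vertical axis) in LPS vs. untreated (left) and Met + LPS vs. LPS (right), with bars of 1 standard error, as deposited (filled circles) and after median-ratio scaling (open squares). In Met + LPS vs. LPS the scales nearly coincide, from -0.96 for Pdia4 to 0.49 for Dnajb9, whereas in LPS vs. untreated Calr is at -0.13 on one scale and 0.39 on the other.

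Ratios between members within a library do not depend on how the libraries are scaled. The pairs given here were chosen after their values were seen, and the ratios are descriptions. Hspa5 was 4.98 and 4.93 times as abundant as Pdia4 in Untr, 11.3 and 11.9 times in LPS and 18.8 and 18.5 times in Met + LPS. The groups were apart, with a step up at LPS and another at Met + LPS. The ratio of Hspa5 to Calr was 0.609 and 0.596 in Untr, 1.08 and 1.06 in LPS and 1.45 and 1.37 in Met + LPS, again rising through the 3 groups. The ratio of Dnajb9 to Pdia4 was 0.393 and 0.350 in Untr, 0.372 and 0.357 in LPS and 1.04 and 0.985 in Met + LPS. Untreated and LPS libraries overlapped in this ratio, and only Met + LPS stood above them. Sdf2l1 and Pdia4 moved in parallel, with ratios of 1.36 and 1.40 in Untr, 1.21 and 1.34 in LPS and 1.31 and 1.29 in Met + LPS.

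**Figure D3:**
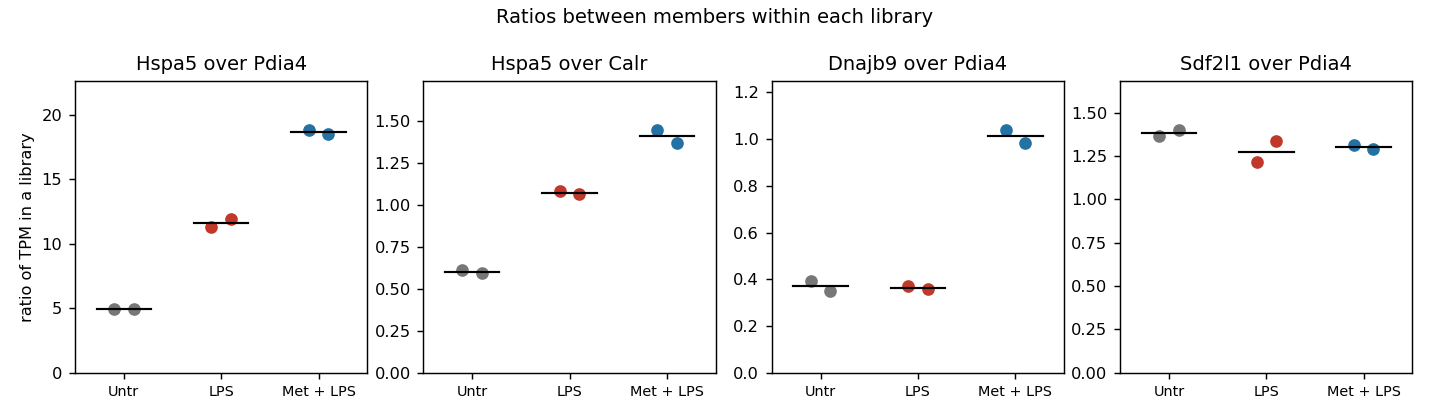
Ratios of the TPM of 2 members within each library (vertical axis, from 0) for the untreated (grey), LPS (red) and Met + LPS (blue) groups, with a point per library and a black line at the mean of 2. Hspa5 over Pdia4 goes from means of 4.95 to 11.6 and 18.7, while Sdf2l1 over Pdia4 stays between 1.21 and 1.40.

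Met + LPS was also set against untreated BMDMs, which uses the same libraries as the comparisons above. As deposited, 2 members were upregulated (against 16.3% of all tested genes), Hspa5 by 0.40 (adjusted p = 2.02e-05 in limma) and Herpud1 by 0.38 on the log2 scale (adjusted p = 0.00122). Another 7 were downregulated (against 58.8%), led by Sdf2l1 with -1.58 (SE 0.04, adjusted p = 2.95e-07 in limma) and Pdia4 with -1.49 (SE 0.04, adjusted p = 3.69e-07). After median-ratio scaling, Hspa5 (0.94), Herpud1 (0.91), Dnajb9 (0.47) and Edem1 (0.34) were upregulated (4 members, against 33.4% of all tested genes) and Sdf2l1 (-1.04), Pdia4 (-0.96) and Calr (-0.28) were downregulated (3 members, against 29.7%). The signs of Dnajb9 and Edem1 thus depended on the scaling, at -0.06 and -0.20 as deposited. Without untreated replicate 1 the decrease of Edem1 as deposited was -0.18 (adjusted p = 0.0114 in limma).

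The other genes of the pathway were read from 6 lists with 64 genes, of which 63 were tested. Derl3, a degradation factor of secretory cells, was at 1.06 TPM or less in every library and did not pass the filter. In Met + LPS vs. LPS, 16 of the 63 were upregulated and 13 were downregulated in limma, beside 14.5% and 18.0% of all tested genes, and the median log2 fold change was -0.00. The same shares are the background for each list that follows, and differences between lists were not tested. Among the sensors, 3 of 4 rose and 0 fell. Ern1, which encodes IRE1, was at 52.9 and 51.7 TPM in Untr, 30.5 and 26.2 TPM in LPS and 69.0 and 61.1 TPM in Met + LPS, and rose from LPS to Met + LPS by 1.17 on the log2 scale (adjusted p = 1.1e-04 in limma). Atf6 was at 55.9 and 54.6 TPM in LPS and 81.7 and 78.1 TPM in Met + LPS (log2 fold change 0.53, adjusted p = 1.2e-04). Atf6b, its paralogue, rose by 0.33 (adjusted p = 0.0016). Eif2ak3, which encodes PERK, was at 21.3 and 22.6 TPM in Untr, 3.4 and 3.4 TPM in LPS and 2.7 and 3.0 TPM in Met + LPS. Its level was low after LPS with or without metformin, with log2 fold changes of -2.38 for LPS vs. untreated (adjusted p = 5.4e-07 in limma) and -0.18 for Met + LPS vs. LPS (adjusted p = 0.090).

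Among 10 other ER chaperones and cochaperones, 6 fell in Met + LPS vs. LPS and 0 rose, with a median log2 fold change of -0.27. Dnajc3, a cochaperone that also inhibits PERK, had the largest decrease, from 59.6 and 56.5 TPM in LPS to 38.2 and 36.5 TPM in Met + LPS (log2 fold change -0.62, adjusted p = 9.9e-05 in limma). Creld2 (-0.48), Dnajb11 (-0.43) and Manf (-0.33), all known targets of the unfolded protein response, also fell. Hyou1, the ER partner of BiP that exchanges its nucleotide, was at 57.3 and 55.9 TPM in LPS and 51.8 and 49.99 TPM in Met + LPS (log2 fold change -0.15, adjusted p = 0.030). The membrane chaperone Canx was at 403 and 380.2 TPM in LPS and 403 and 389 TPM in Met + LPS (log2 fold change 0.02, adjusted p = 0.77 in limma).

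The remaining enzyme and transport lists showed no common direction. Among 9 other oxidoreductases, 3 fell and 2 rose in Met + LPS vs. LPS, with a median log2 fold change of -0.02. Of those that passed, Pdia3 (-0.50) had the largest decrease, and Ero1l, the oxidase that reoxidises protein disulfide isomerases, had the largest increase. Pdia5, at 3.75 TPM or less in every library, had a log2 fold change of -0.61 that did not pass (adjusted p = 0.0167 in limma). Ero1l was at 22.2 and 21.4 TPM in Untr, 29.9 and 28.9 TPM in LPS and 56.0 and 59.0 TPM in Met + LPS (log2 fold change from LPS 0.94, adjusted p = 2.8e-05 in limma). Of 12 tested degradation factors, 3 rose and 1 fell, with a median of 0.03. Derl1, a channel component, rose from 101 and 101 TPM in LPS to 152 and 159.9 TPM in Met + LPS (log2 fold change 0.62, adjusted p = 1.2e-04 in limma), and the ubiquitin ligase Syvn1 fell from 50.9 and 51.6 TPM to 42.1 and 40.9 TPM (-0.30, adjusted p = 0.0010). Sel1l, the partner of Syvn1, was at 148 and 142 TPM in LPS and 158 and 156 TPM in Met + LPS (0.12, adjusted p = 0.027). Of 18 genes of the translocon and ER export, 2 fell and 0 rose, with a median of -0.05. Sec23b, a coat protein gene, had the larger decrease (-0.34, adjusted p = 5.7e-04 in limma).

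Of the 10 genes of the PERK and ATF4 list, 8 rose and 1, Ddit4, fell in Met + LPS vs. LPS, with a median log2 fold change of 0.98. Ddit4 was low, at 4.37 TPM or less in every library, with 19 to 56 reads. Chac1, which rose, was as low, at 4.77 TPM or less with 19 to 62 reads. Atf4 was at 258 and 258 TPM in Untr, 198 and 194 TPM in LPS and 331 and 334 TPM in Met + LPS (log2 fold change 0.75, adjusted p = 1.5e-05 in limma). Its target Ddit3, which encodes CHOP, was at 46.9 and 45.0 TPM in Untr, 13.2 and 13.4 TPM in LPS and 49.96 and 51.8 TPM in Met + LPS (log2 fold change 1.86, adjusted p = 4.4e-06). Ddit3 is listed under 2 identifiers, the second of which was at 0 in every library. Trib3, a pseudokinase gene induced by ATF4 and CHOP, rose most (log2 fold change 3.47), and Ppp1r15a, whose product restores translation, rose by 0.84. ATF4 is also reached through other stress kinases than PERK, so that the list covers more than the ER.

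**Figure D4:**
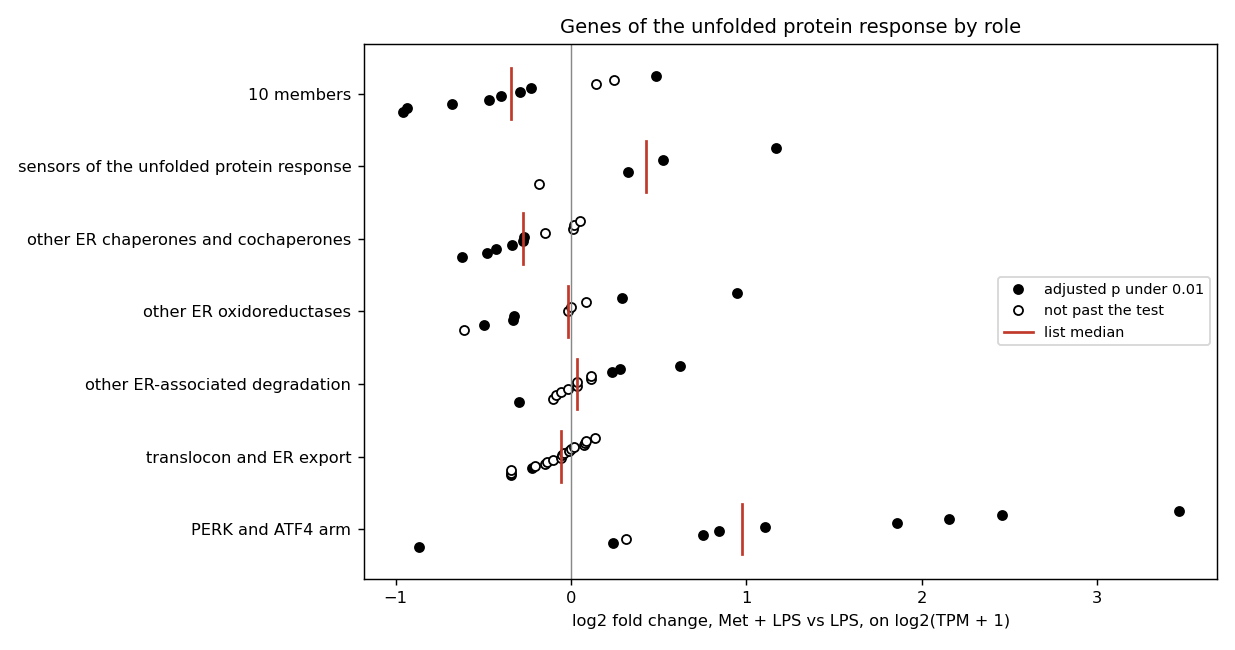
Log2 fold changes from LPS to Met + LPS on the log2(TPM + 1) scale (horizontal axis) for the 10 members and the tested genes of 6 other lists (rows), with a point per gene, filled where the adjusted p-value in limma was under 0.01, and a red line at the median of each list. The medians lie at -0.34 for the members and -0.27 for the other chaperones, and at 0.43 for the sensors and 0.98 for the PERK and ATF4 list.

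In LPS vs. untreated, 42 of the 63 listed genes were lower and 8 higher as deposited, beside 60.1% and 16.2% of all tested genes. After median-ratio scaling, 7 were lower and 33 higher, beside 27.6% and 30.6% of all tested genes. Ppp1r15a (log2 fold change 2.47 as deposited, 2.99 after the scaling) and Eif2ak3 (-2.38 and -1.91) had the largest changes in each direction, and both signs held on both scales. Ern1 (-0.86 and -0.35), Ddit3 (-1.71 and -1.21) and Trib3 (-1.76 and -1.28) were lower in LPS on both scales. Of 50 listed genes with a promoter entry, ERSE was found in 5 (Canx, Creld2, Derl3, Dnajc3 and Syvn1) and ERSE-II in Dnajb11. Of these, Creld2, Dnajc3, Syvn1 and Dnajb11 were among the genes that fell in Met + LPS vs. LPS, beside 18.0% of all tested genes. Canx did not pass and Derl3 was not tested. CARE was found in Asns, Atf3, Chac1, Trib3 and Txndc5. The first 4 rose, beside 14.5% of all tested genes, and belong to the PERK and ATF4 list, in which 8 of 10 rose. Txndc5 fell. UPRE was found in 4 (Sec24d, Txndc11, Txndc5 and Ube2j1), of which Txndc5 fell and the other 3 did not pass. The part of these elements in the changes of the listed genes was not tested.

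By Pearson's correlation of log2(TPM + 1) over the 6 libraries, the genes with a pattern most like that of Hspa5 were Gpd2, Fcgr2b, Myo10, Ranbp2 and Ccl9, with r between 0.9991 and 0.9993. All 5 were lowest in Untr, highest in LPS and between them in Met + LPS. Ccl9, a chemokine gene, was at 748 and 781 TPM in Untr, 3160 and 3254 TPM in LPS and 1752 and 1768 TPM in Met + LPS. With 6 libraries in 3 groups such values mainly reflect the order of the group means. The other members had r between -0.99 (Edem1) and 0.42 (Herpud1) with Hspa5. All these r were computed on TPM as deposited, depend on the scaling and were not computed after median-ratio scaling. From Untr to LPS, Edem1 moved against Hspa5 as deposited (log2 fold changes -0.34 and 0.69). After median-ratio scaling both rose (0.18 and 1.22).

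Reads that also match other genes could have been split or lost in the authors' counting. Of the 31-base stretches of its transcripts, Hsp90b1 had 87.7% found in no other gene and Dnajb9 89.2%, while the other members had at least 98.1%. The gene that shares most with Hsp90b1 is 1810014B01Rik, which overlaps it on the opposite strand and was at 0.639 to 2.98 TPM, and the one that shares most with Dnajb9 is Gm6568, which was at 0.00 to 0.601 TPM. Both were far below the members in every library. Shared reads that were dropped would be missing from these genes as well, so their levels do not show how many the members lost. No source used here says whether the counting used strand.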

How the data were processed

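The authors enriched poly-A RNA, aligned single-end reads to GRCm38 with STAR 2.6.1d, counted them per gene with featureCounts of Subread 1.6.3 and deposited TPM per library, without pooling. How counts became TPM is not given in the sources used here. Every library sums to 1000000 TPM, so totals show no depth. TPM times GENCODE M21 exon length was a whole multiple of a common step (tolerance 0.02) for 96.2% to 96.5% of values, and these multiples were taken as reads. Intervals of counting error were not computed, and the reads carry no molecular identifiers.

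Genes with at least 1 TPM in 2 of 6 libraries were fitted by limma (version 3.58.1, R 4.3.3) as log2(TPM + 1), using eBayes with a trend, all libraries in 1 fit, 3 residual degrees of freedom and Benjamini-Hochberg adjustment over the 12755 genes. This scale understates changes of low genes. A gene passed at an adjusted p-value under 0.01. The study's DESeq2 test needs counts and was not used. A two-sided exact permutation test of 2 libraries against 2 cannot go below 0.333. Alternative settings were median-ratio scaling, a pseudocount of 0.1, a minimum of 5 TPM or no filter, only the compared groups, the replicate number as a block, no trend, an adjusted p-value of 0.05, voom on recovered reads (with factors from the trimmed mean of M values) and each library left out. The fit was tried on simulated data for Met + LPS vs. LPS only, with larger changes than those of the members and no shift of all genes. It therefore does not cover small changes or the shift of the median gene in LPS vs. untreated. The members and lists were chosen with earlier results of these data known. Named are all members, the genes at the ends of each list past the test, and genes defining the pathway. Tables and plots were made in Python 3.11.15 with matplotlib 3.10.9.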

Additional observations from a re-analysis of the deposited data

How the results depend on the processing

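In Met + LPS vs. LPS, no member's log2 fold change reversed under the alternatives tried, and 135 of 150 values stayed on their side of the test. The number of upregulated members, 1 as reported, was 2 with median-ratio scaling, 3 with a minimum of 5 TPM, with an adjusted p-value of 0.05 and with voom, and 0 to 2 with single libraries left out. The count of downregulated members, 7 as reported, then ran from 6 to 7.

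In LPS vs. untreated, 1 member was upregulated and 6 downregulated as reported, against 7 and 0 with median-ratio scaling and 7 and 1 with voom. With single libraries left out, 1 to 2 members were upregulated and 5 to 6 downregulated. With median-ratio scaling and voom the log2 fold changes were 0.38 and 0.33 for Hsp90b1, 0.21 and 0.15 for Xbp1, 0.37 and 0.32 for Pdia6, 0.39 and 0.34 for Calr, and 0.18 and 0.13 for Edem1, all reversed. Both alternatives centre the libraries on the bulk of genes, whose median was -0.48 as deposited. In Met + LPS vs. untreated, 2 members upregulated and 7 downregulated became 4 and 3 with either alternative, Dnajb9 turned to 0.47 and 0.44 and Edem1 to 0.34 and 0.30. With single libraries left out, 2 members stayed upregulated, 6 to 7 were downregulated, and Dnajb9 ran from -0.12 to 3.7e-04.

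No pairing of the libraries by replicate number was seen in their deviations, which cannot show whether libraries of the same number shared a mouse, culture or day. The deviations from the group means correlated over genes at -0.00 between Untr and LPS, 0.03 between Untr and Met + LPS and 0.01 between LPS and Met + LPS. With the replicate number as a block, the counts of upregulated and downregulated members were 1 and 7 in LPS vs. untreated, where Calr passed as well (adjusted p = 0.00708 in limma), 1 and 7 in Met + LPS vs. LPS and 2 and 7 in Met + LPS vs. untreated.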
